A study of Mus musculus with 6 samples.

Results

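The growth hormone, STAT5 and insulin-like growth factor (IGF) axis was followed in mouse liver through 10 genes, namely Ghr, Jak2, Stat5a, Stat5b, Igf1, Igfals, Igfbp1, Igfbp2, Bcl6 and Cux2. They were chosen by gene symbol, and each was found once among the 40803 genes counted. The genes and the lists set beside them were chosen with earlier results of these data known. Their counts beside the share of all genes are thus no test of them. The libraries came from livers of 6 male C57BL6 mice injected through the tail vein at about 6 weeks of age and collected 4 weeks later, with 1 mouse per library. The rAAV8-Scramble group (n = 3) received an adeno-associated virus of serotype 8 carrying a scrambled short hairpin RNA, and the rAAV8-Hnf1aos1 group (n = 3) received the same kind of virus with a hairpin against Hnf1aos1, a long non-coding RNA. Both hairpins were thus delivered by a virus, no uninjected mouse was sequenced, and the hairpin was driven by the U6 promoter, which is active in most cell types, so the knockdown was not limited to hepatocytes by its promoter. All values below come from bulk liver RNA, and growth hormone and STAT5 activity were not measured in these libraries.

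Growth hormone binds its receptor on hepatocytes, which activates the kinase JAK2. JAK2 then phosphorylates STAT5A and STAT5B, and these enter the nucleus and switch on genes such as Igf1, whose expression in liver is the main source of circulating IGF-1. They also switch on genes for inhibitors that shut the signal down again. In male mice the hormone arrives in pulses and in females more continuously, and STAT5 with the repressors BCL6 and CUX2 turns this difference into the sex-biased gene expression of the liver.

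The question for these genes was whether the Hnf1aos1 hairpin was accompanied by a change in the transcripts of the axis. Bcl6 was the only 1 of the 10 that passed an adjusted p of 0.05 in edgeR's quasi-likelihood test, and it was lower at 40.0% of the scramble level (95% interval 26.2% to 61.0%). Over all 16327 genes tested, 6.32% were called, 3.23% as lower and 3.09% as higher. DESeq2 also called Bcl6 alone among the 10, where it called 7.11% of all genes. An unadjusted p under 0.05 was reached by 3 of the 10 (Bcl6, Stat5b and Igf1), against 23.4% of all genes. Receptor, kinase and both STAT5 transcripts, the IGF-1 transcript and its carriers did not pass the test, while the feedback inhibitor genes Cish and Socs3 rose. Of the 10 genes, 9 had a log2 fold change below 0, against 50.1% of all genes tested, and their median was -0.18 against -0.00040 for all genes. When libraries were instead sized by their added ERCC spike-in RNA, the median of all genes moved to 0.20 and that of the 10 genes to 0.025, with Ghr, Stat5a, Igfals, Igfbp1 and Igfbp2 turning to above 0.

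The libraries held 14704746 to 19462398 counts over genes, and all 10 hepatocyte markers fixed for the check were measured, with a summed level, as counts scaled to a common library size (CPM), of 84109 to 95188 in scramble livers and 89786 to 105482 in knockdown livers. Hnf1aos1 itself had normalized counts of 512, 491 and 620 in scramble livers and 278, 258 and 433 in knockdown livers. The groups did not overlap, and its log2 fold change was -0.74 (SE 0.195), with an adjusted p of 0.0625 in edgeR. It was called under 5 of 9 other settings for the counts, among them DESeq2 (adjusted p = 0.00341) and limma's voom (adjusted p = 0.0418). Without knockdown replicate 3, the least depleted, the adjusted p was 0.000261. That replicate also stood apart in the acute phase list, whose summed level was 30890, 35107 and 19503 CPM in knockdown replicates 1, 2 and 3 and 13390 to 14594 CPM in the scramble livers. Values without it are therefore given where they change the call of 1 of the 10 genes. Normalized counts here are raw counts divided by the TMM-scaled library size relative to the mean of the 6 libraries.

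Among the 10 genes the level per transcript length, as the authors' TPM (abundance scaled for transcript length and library size), spanned from the receptor to a repressor barely present in these male livers. In the scramble group the mean TPM was 307 ± 15.5 (SD, n = 3) for Ghr, 194 ± 3.37 for Igf1, 102 ± 8.11 for Igfbp2, 87.4 ± 3.98 for Igfals and 69.0 ± 18.4 for Igfbp1. Below these stood Bcl6 at 44.3 ± 2.28, Stat5b at 28.9 ± 1.67, Stat5a at 13.2 ± 1.65, Jak2 at 6.40 ± 0.778 and Cux2 at 0.236 ± 0.0524. Igfals and Igfbp1 were the only neighbours in this order whose library ranges overlapped in the scramble group. In the knockdown group Bcl6, at 16.7 ± 5.07 TPM, came below Stat5b at 22.7 ± 1.88, with no overlap of those 2 ranges.

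**Figure D1:**
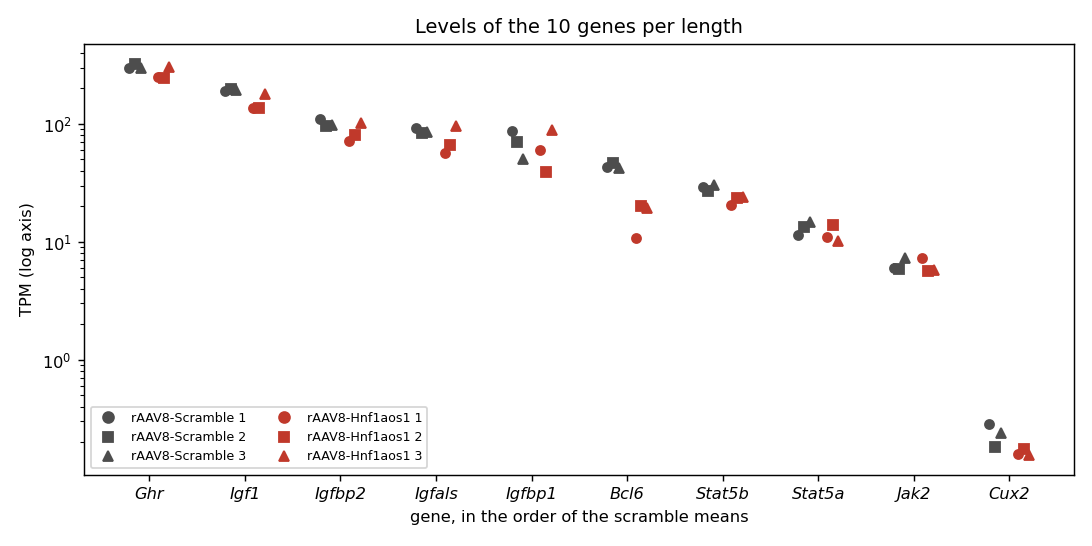
The vertical axis gives the authors' TPM on a log axis and the horizontal axis the 10 genes in the order of the scramble means, with 1 point per library (dark for rAAV8-Scramble, red for rAAV8-Hnf1aos1, the symbol for the replicate). Ghr lies between 243 and 324 TPM in all libraries and Cux2 under 0.29, and Bcl6 shows the clearest gap between the groups, with 42.6 to 46.9 against 10.9 to 20.0.

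Ghr encodes the growth hormone receptor, which in liver sets how strongly the hormone is sensed. It had normalized counts of 10525, 11494 and 9919 in scramble livers and 8767, 9101 and 11332 in knockdown livers. Knockdown replicates 1 and 2 were below every scramble library, while replicate 3 lay between scramble replicates 1 and 2, so the groups overlapped. The log2 fold change was -0.13 (SE 0.120, adjusted p = 0.552).

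Jak2, the tyrosine kinase bound to the receptor, had normalized counts of 507, 508 and 593 in scramble livers and 616, 510 and 514 in knockdown livers. Its groups overlapped throughout, and the log2 fold change of 0.03 (SE 0.109, adjusted p = 0.901) changed sign with the scaling, at -0.04 when libraries were sized by their totals. The 95% interval put Jak2 at 86.4% to 120% of the scramble level.

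STAT5A and STAT5B are near-identical transcription factors that share the phosphorylation by JAK2, with STAT5B the more abundant in liver. Stat5b had normalized counts of 1812, 1690 and 1794 in scramble livers and 1271, 1542 and 1571 in knockdown livers. Every knockdown library was below every scramble library, which 13.7% of all genes tested also showed. The log2 fold change was -0.27 (SE 0.0993) with an unadjusted p of 0.0185 and an adjusted p of 0.125, so Stat5b was not called, and the sign held under each alternative that was run. Stat5a had 408, 483 and 503 in scramble livers and 395, 524 and 381 in knockdown livers, which overlapped, with a log2 fold change of -0.10 (SE 0.135, adjusted p = 0.701). Stat5a took 31.3 ± 2.79% of the summed Stat5a and Stat5b TPM in scramble livers and 33.9 ± 3.84% in knockdown livers (SD, n = 3 each), a difference within the spread between livers.

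The outputs of the axis that carry its endocrine signal are Igf1 and Igfals, the latter encoding the acid-labile subunit that keeps IGF-1 in a long-lived complex in plasma. Igf1 had normalized counts of 12717, 13306 and 12342 in scramble livers and 9186, 9772 and 12667 in knockdown livers. Replicates 1 and 2 of the knockdown were below all scramble libraries, and replicate 3 was inside their range. The log2 fold change was -0.28 (SE 0.126, adjusted p = 0.211), and without knockdown replicate 3 it was -0.43 with an adjusted p of 0.0254. Igfals had 1702, 1577 and 1528 in scramble livers and 1056, 1299 and 1898 in knockdown livers. Here knockdown replicate 3 was the highest of all 6 and replicates 1 and 2 the lowest. Its log2 fold change was -0.18 (SE 0.197, adjusted p = 0.638), and -0.44 with an adjusted p of 0.0233 without knockdown replicate 3. Without that replicate 2 of the 10 genes were called, Igf1 and Igfals, and Bcl6 was not (adjusted p = 0.0594), while 11.2% of all genes tested were called.

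Macrophages also express Igf1. The 10 macrophage markers were all measured, and 3 were called as higher (Lyz2, Clec4f and Adgre1), where 3.09% of all genes were. Without knockdown replicate 3 it was 6 of the 10, where 6.06% of all genes were called as higher. All 10 had a log2 fold change above 0, where 50.1% of all genes tested were below 0. For 8 of them every knockdown library was above every scramble library, as for 15.2% of all genes tested. Their summed level was 216 to 263 CPM in scramble livers and 276 to 348 CPM in knockdown livers. The part of macrophages in the Igf1 values was not tested. In bulk tissue, fewer cells of a type and less RNA per cell cannot be told apart.

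IGF-binding proteins 1 and 2 hold IGF-1 away from its receptor, and both are made by hepatocytes under the control of insulin and feeding. Igfbp1 had normalized counts of 1022, 838 and 564 in scramble livers and 716, 494 and 1110 in knockdown livers. It had the largest SE of the 10 genes, with a log2 fold change of -0.06 (SE 0.379, adjusted p = 0.941) and a 95% interval of 48.5% to 189% of the scramble level. Changes of Igfbp1 within that interval could not be told from none with 3 livers a group. Igfbp2 had 1481, 1293 and 1255 in scramble livers and 961, 1144 and 1439 in knockdown livers. Knockdown replicates 1 and 2 were again below the scramble range and replicate 3 inside it, and the log2 fold change was -0.18 (SE 0.138, adjusted p = 0.454).

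Other hepatic genes that respond to insulin, fasting and glucocorticoid were listed beside these binding proteins. Of 13 measured, 4 were called, each as lower, where 3.23% of all genes were. All 13 had a log2 fold change below 0, against 50.1% of all genes tested, with a median of -0.56. Pdk4, a kinase that blocks pyruvate oxidation in fasting, fell by 1.71 on the log2 scale (SE 0.136, adjusted p = 0.000209). Tat, the tyrosine aminotransferase induced by glucocorticoid, fell by 0.72 (SE 0.116, adjusted p = 0.00766). Srebf1, the lipogenic factor induced by insulin, fell by 0.56 (SE 0.101, adjusted p = 0.0111). Called genes of this list thus include ones known to be raised by fasting or glucocorticoid and one known to be raised by insulin. The count of called genes was 1 without scramble replicate 3 and 2 without knockdown replicate 2, where 0.619% and 1.93% of all genes were called.

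BCL6 is a zinc finger repressor that recognises letters close to those bound by STAT5 and opposes STAT5 at part of its targets in male liver, and its gene is known to be turned down when growth hormone is abundant. Bcl6 had normalized counts of 2005, 2185 and 1880 in scramble livers and 503, 985 and 937 in knockdown livers. All 3 knockdown livers were far below the scramble livers, and replicate 1 was the lowest, with the other 2 close together. The log2 fold change was -1.32 (SE 0.252, unadjusted p = 0.00167, adjusted p = 0.0377). It was called under 8 of 9 other settings for the counts, and the exception was the fit with no filter on low counts (adjusted p = 0.0915), in which 6.92% of all genes were called. Without knockdown replicate 1 the adjusted p was 0.000412, and without any other single library it was 0.0558 to 0.122, with log2 fold changes of -1.49 to -1.08 over the 6 such fits. Lymphocytes also express Bcl6, and none of the 10 lymphocyte markers tested was called by edgeR or DESeq2. In edgeR 1 of these markers had an unadjusted p under 0.05, against 23.4% of all genes. The summed level of the lymphocyte markers was 26.9 to 37.2 CPM in scramble livers and 30.5 to 39.2 CPM in knockdown livers.

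**Figure D2:**
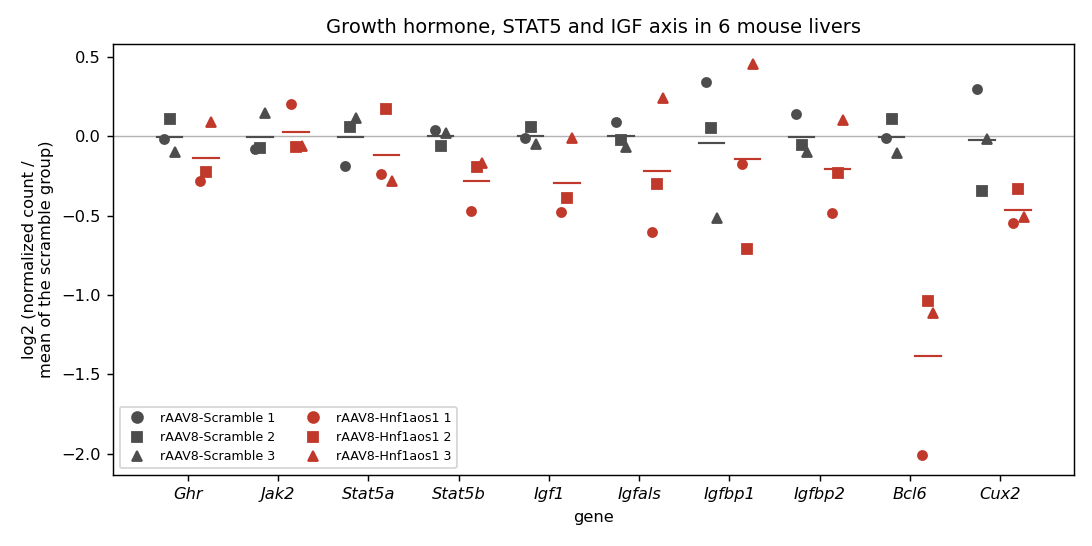
For each of the 10 genes on the horizontal axis the vertical axis gives the log2 of the normalized count over the mean of the scramble group, with 1 point per library and a line at the mean of each group's log2 values. Bcl6 is the gene whose knockdown points lie farthest below 0, Stat5b also has all 3 below the scramble points, and in Ghr, Igf1, Igfals and Igfbp2 the triangle of knockdown replicate 3 lies above the other 2 knockdown points.

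The sequence before the second annotated Bcl6 start is shown because it holds the letters TTCNNNGAA, the palindrome to which STAT5 dimers and, with near letters, BCL6 bind. The motif reads the same on both strands, and it was searched in the RefSeq promoter windows of build GRCm38.p6, which run from 250 bases before to 50 bases after each start. Of 32851 windows of the same length, 8.30% held at least 1 match, 150 held 2 or more and 11 held 3 or more. All 10 genes were matched by symbol to 18 windows, of which 4 held a match, 2 of Bcl6 and 2 of Igfals, and none of those of Ghr, Jak2, Stat5a, Stat5b, Igf1, Igfbp1, Igfbp2 or Cux2. The second Bcl6 window held 3 matches, whose first bases lie 168, 122 and 88 bases before the start. The 250 bases before that start, at chr16:23981284-23981533 on the minus strand, overlap no annotated exon and are printed with the matches in capitals.
Bcl6, second start: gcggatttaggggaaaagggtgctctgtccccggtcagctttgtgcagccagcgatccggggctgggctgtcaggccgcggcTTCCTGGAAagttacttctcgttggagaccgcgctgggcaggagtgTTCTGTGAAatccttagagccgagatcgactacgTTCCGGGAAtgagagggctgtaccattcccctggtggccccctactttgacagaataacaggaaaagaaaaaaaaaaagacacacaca
The first Bcl6 window held 1 match, 118 bases before its start. Igfals held 1 match 236 bases before its first start and 1 match 58 bases before its second start, the latter at chr17:24878173-24878181 on the plus strand. A match is a run of letters and no measurement of binding.
Bcl6, first start: gcaaattagTTCTCAGAAttccagagg
Igfals, second start: tgccaggtgTTCCTAGAAgaggccctg

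Cux2 encodes a homeobox repressor that is known to be much higher in female than in male mouse liver. It had normalized counts of 20.5, 13.2 and 16.5 in scramble livers and 11.4, 13.3 and 11.8 in knockdown livers, close to the lowest counts that were still tested. The log2 fold change was -0.46 (SE 0.348, adjusted p = 0.459), and the interval of 42.8% to 124% of the scramble level shows how little these counts resolve.

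The profiles over the 6 libraries were compared for the 3 of the 10 genes with the smallest p, by the root mean square difference of centred log2 CPM. Genes named here were thus picked for their likeness to the 3 in these same libraries, so their fold changes are no separate result. The nearest profiles to Bcl6 were those of Egr3, an early growth response transcription factor (0.120), Endou (0.163) and Gm31255 (0.165). Egr3 fell by 1.44 on the log2 scale (SE 0.335, adjusted p = 0.0317), from low mean normalized counts of 34.8 in scramble livers to 12.7 in knockdown livers. For Stat5b the nearest were Gm10910, Hjurp and Ankrd11, and for Igf1 they were Gm17029, Pxdn and Ecm1, and none of these 6 was called (adjusted p from 0.0922 to 0.636).

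STAT5 switches on genes for its own inhibitors, and CISH and the SOCS proteins then block the receptor and JAK2. Of 12 measured genes for SOCS proteins, phosphatases and PIAS proteins that restrain JAK2 and STAT5, 2 rose and none fell, where 3.09% of all genes were called as higher, with a median log2 fold change of 0.22. Cish had normalized counts of 48.2, 41.7 and 37.4 in scramble livers and 254, 429 and 880 in knockdown livers. Its lowest knockdown library was well above its highest scramble library, and knockdown replicate 3 was the highest. The log2 fold change was 3.61 (SE 0.602, adjusted p = 0.0416), which is 12.2 times the scramble level. Socs3, an inhibitor that is induced by interleukin-6 as well as by growth hormone, had 57.5, 51.6 and 59.4 in scramble livers and 130, 325 and 272 in knockdown livers. The groups did not overlap, and the log2 fold change was 2.11 (SE 0.339, adjusted p = 0.0169).

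For Cish the adjusted p was 1.37e-05 without knockdown replicate 3 and 0.0110 without knockdown replicate 1, and 0.118 to 0.168 without any other single library. For Socs3 it was above 0.05 without any one of the scramble libraries, at 0.0642 to 0.0982. Socs2 and Socs1, picked after their values were seen, were not called. Socs2, the inhibitor most closely tied to growth hormone in liver, had 146, 188 and 72.6 in scramble livers and 366, 281 and 708 in knockdown livers, which did not overlap (log2 fold change 1.74, SE 0.521, adjusted p = 0.137). DESeq2 called 4 of the 12, each as higher, where it called 3.64% of all genes as higher, with Socs2 at an adjusted p of 0.0277.

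The Cish start is shown because its 2 matches to TTCNNNGAA lie at the transcript's first bases. They start at bases 1 and 12 counted from the start, in an annotated exon, and the first occupies chr9:107296659-107296667 on the plus strand.
Cish, first match: cgcccagttTTCCTGGAAagttcttgg
The Socs3 window held 1 match, 154 bases before its start, and the Onecut1 window held none.

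**Figure D3:**
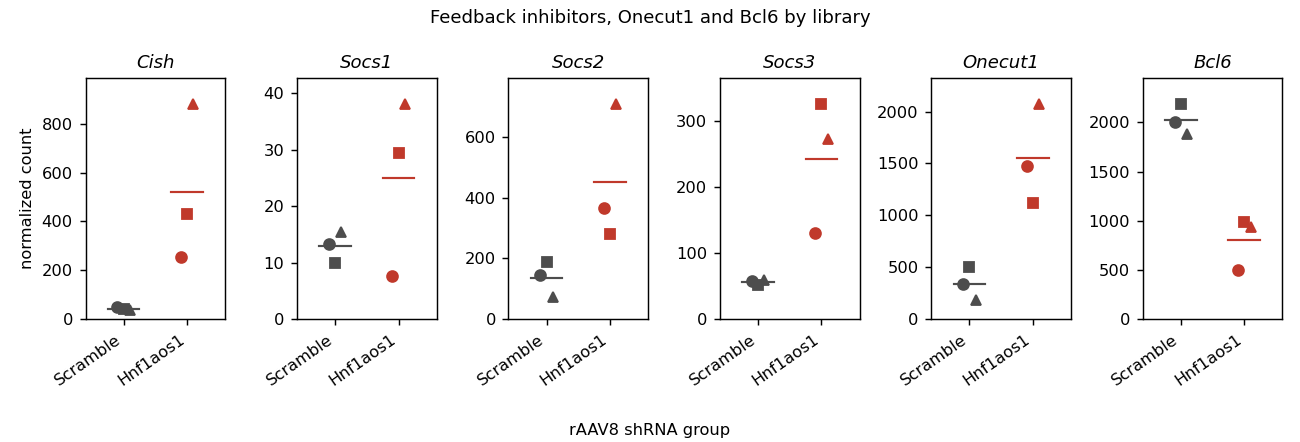
Each panel gives the normalized count of 1 gene on its own vertical axis from 0, by hairpin group on the horizontal axis, with 1 point per library and a line at the group mean. Cish, Socs2, Socs3 and Onecut1 have all 3 knockdown points above the scramble points and Bcl6 has all 3 below, while Socs1 overlaps.

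Other proteins that act at or beside the growth hormone receptor moved in both directions. Of 13 measured, 1 rose and 1 fell, where 6.32% of all genes were called, with a median log2 fold change of 0.20. Prlr, the prolactin receptor, had 2532, 2792 and 2554 in scramble livers and 2068, 1398 and 1520 in knockdown livers (log2 fold change -0.66, SE 0.136, adjusted p = 0.0224). The Prlr groups did not overlap, and its call held without scramble replicate 1, knockdown replicate 1 or knockdown replicate 3 (adjusted p up to 0.116 in the other fits without a single library). Of the 19 interferon-stimulated genes measured, 11 rose and none fell, where 3.09% of all genes were called as higher. The median log2 fold change of the list was 1.62. Ifit2 rose by 1.37 (SE 0.177, adjusted p = 0.00322), Bst2 by 0.75 (SE 0.107, adjusted p = 0.00424), Mx1 by 2.29 (SE 0.327, adjusted p = 0.00766) and Ifih1 by 1.31 (SE 0.195, adjusted p = 0.0121). The interferon list had 4, 2 and 3 called genes without scramble replicate 2, scramble replicate 3 and knockdown replicate 2. Of all genes, 2.34%, 0.619% and 1.93% were called in those fits. Among 20 acute phase genes, which STAT3 and interleukin-6 control, 4 rose and none fell by edgeR, against the same 3.09%, with a median of 1.08. They were the fibrinogen genes Fgb (log2 fold change 1.11, SE 0.170, adjusted p = 0.00682), Fgg (1.04, SE 0.175, adjusted p = 0.0106) and Fga (1.06, SE 0.190, adjusted p = 0.0141), and Hpx, the haem carrier hemopexin (1.00, SE 0.217, adjusted p = 0.0361). DESeq2 called 15 of the 20, each as higher, where it called 3.64% of all genes as higher. The edgeR count of acute phase genes was 1, 0, 2 and 13 without scramble replicate 2, scramble replicate 3, knockdown replicate 1 and knockdown replicate 3. In those fits 2.34%, 0.619%, 3.77% and 11.2% of all genes were called. Their part in the values of Socs3 and Igf1 was not tested.

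The other ligands, carriers and proteases of the IGF system showed no called gene. Of 12 listed, 8 passed the filter on low counts, and none was called by edgeR or DESeq2. None had an unadjusted p under 0.05 in edgeR, against 23.4% of all genes. Their median log2 fold change was -0.25. Htra1, a protease of IGF-binding proteins, had the smallest p and a log2 fold change of -0.62 (SE 0.304, adjusted p = 0.246). Igfbp5 followed with -0.64 (SE 0.405, adjusted p = 0.404), and its normalized counts ran from 148 to 450 within the scramble group alone.

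Genes known to be higher in male than in female mouse liver under pulsatile growth hormone were listed next. Whether STAT5 activity differed between the groups was not tested. All 22 listed were tested, 7 rose and none fell by edgeR, against 3.09% of all genes called as higher, and the median log2 fold change was 0.57. DESeq2 called 10 as higher and 1 as lower, where it called 3.64% and 3.47% of all genes. This list and the female-biased list below, like the other lists, were chosen with earlier results of these data known. Their counts beside the share of all genes are thus no test of the lists. Cyp7b1, an oxysterol hydroxylase, had normalized counts of 3550, 3531 and 2861 in scramble livers and 7542, 7599 and 6050 in knockdown livers (log2 fold change 1.09, SE 0.124, adjusted p = 0.00154). Serpina12, encoding the serpin vaspin, rose by 1.00 (SE 0.116, adjusted p = 0.00154), Ugt2b38 by 0.92 (SE 0.134, adjusted p = 0.0046) and Selenbp2, a selenium-binding protein, by 1.93 (SE 0.233, adjusted p = 0.00682). These 4 were called whichever single library was left out. Without scramble replicate 3 they were the 4 genes of the list that were called, where 0.619% of all genes were. Other genes of the list, named after their values were seen, were not called by edgeR. The log2 fold changes of Mup3 (-0.02), Slco1a1 (-0.0026), Cyp2d9 (0.05) and Hsd3b5 (0.09) were close to 0, and those of Elovl3 (-0.68, SE 0.229, adjusted p = 0.129) and Mup1 (-0.70, SE 0.545, adjusted p = 0.493) were below 0. Elovl3, a fatty acid elongase, had an adjusted p of 0.00486 in DESeq2. Moxd1 had normalized counts of 13.3, 8.78 and 5.50 in scramble livers and 665, 869 and 76.1 in knockdown livers, with knockdown replicate 3 far below the other 2. Its log2 fold change was 5.83 (SE 1.37, adjusted p = 0.0964), with an adjusted p of 4.99e-07 in DESeq2 and 2.67e-09 without knockdown replicate 3, and 4 of 9 other settings called it. Several genes of this list belong to families of near-identical copies, among them the 5 Mup genes, Cyp4a12a and Cyp4a12b, Serpina1e and Ugt2b38, so the split of reads within those families is uncertain.

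Of 24 listed genes that are higher in female liver, 12 passed the filter on low counts in these male livers, and Cyp2b9, Cyp3a41a, Cyp3a41b and Sult3a1 had 0 counts in all 6 libraries. Of the 12 tested, 4 fell and none rose, where 3.23% of all genes were called as lower, with a median log2 fold change of -0.68. The log2 fold change was below 0 for 8 of the 12 and above 0 for 4, where 50.1% of all genes tested were below 0. In edgeR 5 had an unadjusted p under 0.05 as lower and 2 as higher, against 23.4% of all genes in either direction. Those above 0, named after their values were seen and not called, were Atp6v0d2 (2.09, SE 1.07), Cyp2c69 (1.13, SE 0.458), Cyp2b10 (0.88, SE 0.325) and Cyp2c40 (0.504, SE 0.346). Acot3, a peroxisomal acyl-CoA thioesterase, had normalized counts of 198, 207 and 175 in scramble livers and 21.9, 11.4 and 25.4 in knockdown livers (log2 fold change -3.29, SE 0.240, adjusted p = 0.000142). Acot4, a related thioesterase, fell by 1.66 (SE 0.155, adjusted p = 0.000689). The chromatin protein gene Tox fell by 1.31 (SE 0.261, adjusted p = 0.0174), and Fmo2, a flavin monooxygenase, by 0.68 (SE 0.169, adjusted p = 0.0390). The call of Acot3 and Acot4 held without each single library. These 2 alone were called in the fits that left out knockdown replicate 2, scramble replicate 2 or scramble replicate 3. Those fits called 1.93%, 2.34% and 0.619% of all genes. Acot3 and Acot4 are also known as targets of the fatty acid sensor PPAR-alpha.

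**Figure D4:**
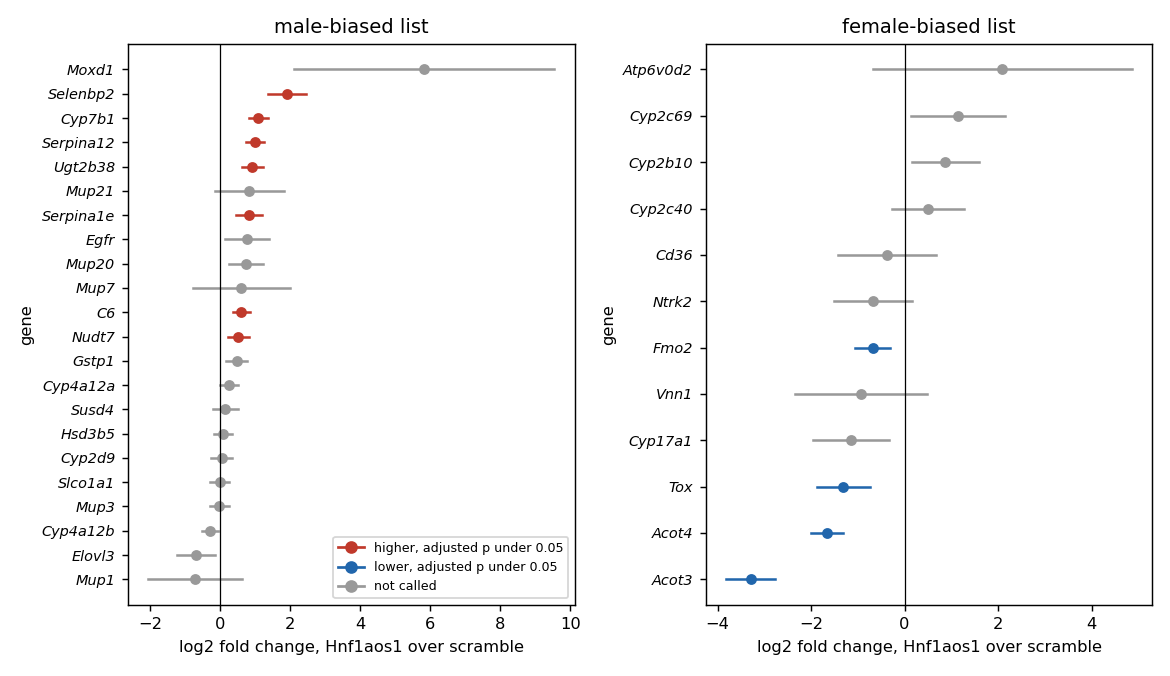
The horizontal axis gives the log2 fold change of knockdown over scramble with its 95% interval, for the 22 male-biased genes tested on the left and the 12 female-biased genes tested on the right, coloured by call. The 7 called male-biased genes lie between 0.52 and 1.93 and the 4 called female-biased genes between -3.29 and -0.68, and the widest interval on the left is that of Moxd1 at 5.83, not called by edgeR.

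Of 14 liver transcription factors known to act with STAT5, 1 rose and none fell by edgeR, where 3.09% of all genes were called as higher. Their median log2 fold change was 0.25, in a range from -0.81 to 2.19. For 9 it was above 0 and for 5 below, where 50.1% of all genes tested were below 0. In edgeR 6 of the 14 had an unadjusted p under 0.05, each as higher, against 23.4% of all genes in either direction. DESeq2 called 5 as higher and 1 as lower, where it called 3.64% and 3.47% of all genes. Foxa3, a forkhead factor, had 793, 924 and 869 in scramble livers and 1143, 1611 and 1095 in knockdown livers (log2 fold change 0.57, SE 0.143, adjusted p = 0.0445), and its adjusted p was 0.0545 to 0.175 without any single library except knockdown replicate 3. Onecut1, a factor that growth hormone is known to raise, was picked after its values were seen. It had 340, 505 and 179 in scramble livers and 1473, 1117 and 2071 in knockdown livers, which did not overlap, and it was not called by edgeR (log2 fold change 2.19, SE 0.462, adjusted p = 0.0704), while DESeq2 called it with an adjusted p of 0.000245.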

How the data were processed

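Liver RNA of 6 mice was sequenced, 3 per group, with groups taken from the sample titles. The authors trimmed reads with Trimmomatic, aligned them with STAR and used featureCounts to assign reads with a single mapped position to exons. The deposited raw counts are whole numbers without normalization, and the TPM values were deposited by the authors. Their methods name GRCm38 and the sample labels GRCm39, and poly(A) selection against removal of ribosomal RNA, so gene positions are not printed beyond the RefSeq windows. The authors' normalized counts and comparison table (fold changes and p-values) were not used.

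The 92 ERCC rows were left out of library sizes. They held 1.38% to 1.52% of counts in scramble libraries and 1.18% to 1.24% in knockdown libraries. Counts were filtered by filterByExpr, scaled by TMM and compared with edgeR 4.0.16 in R 4.3.3 (robust quasi-likelihood fits, Benjamini-Hochberg over 16327 genes, called at adjusted p under 0.05). SEs are the log2 fold change over the root of the test's F. Alternatives were DESeq2 1.42.0, limma 3.58.1 (voom, and log2 of TPM plus 0.1 or 1), other library sizes and filters, a replicate block and leaving out each library. The test was tried on simulated counts. Named genes were the 10 genes, the called genes of each list (4 with the smallest p where more were called, 2 where none was), Hnf1aos1 and the 3 nearest profiles; some genes of this rule are not reported here. The genes and lists were chosen with earlier results of these data known, so their counts beside the share of all genes are no test of the lists. Depths of 14704746 to 19462398 leave counting error small except for the lowest genes, such as Cux2. That libraries are separate mice comes from the methods.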

Additional observations from a re-analysis of the deposited data

How the results depend on the processing

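With 3 livers a group, most calls depended on single libraries. In refits without 1 library at a time the number of genes called was 103 (without scramble replicate 3) to 1881 (without knockdown replicate 3), against 1032 with all 6. The refits called 0 to 2 of the 10 axis genes, 0 to 4 receptor signalling genes, 0 to 3 inhibitors, 0 to 1 IGF carriers, 4 to 9 male-biased and 2 to 4 female-biased genes, 0 to 3 transcription factors, 1 to 6 insulin and fasting genes, 1 to 3 clock genes, 2 to 15 interferon genes and 0 to 13 acute phase genes. Without filter on low counts 0 axis genes, 1902 genes in all, 1 receptor signalling gene, 2 transcription factors and 2 clock genes were called. On log2 of TPM plus 0.1, with or without a filter, 0 axis genes were called. With spike-in library sizes 3394 genes were called (18.6% of genes higher and 2.23% lower, against 3.09% and 3.23%), with 8 receptor signalling, 4 inhibitor, 12 male-biased, 6 transcription factor, 17 interferon and 10 acute phase genes. DESeq2 called 4 inhibitors, 11 male-biased genes, 6 transcription factors and 15 acute phase genes. Library totals (1.96% of genes higher and 4.46% lower) and a mean of at least 50 counts each left 0 transcription factors. The fit without robust estimation gave 2 transcription factors and 13 acute phase genes, and voom 8 acute phase genes.

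The sign turned with spike-in sizes for Ghr (0.072), Stat5a (0.10), Igfals (0.029), Igfbp1 (0.14) and Igfbp2 (0.021). Jak2 turned to -0.04 with library totals, -0.0024 with a mean of at least 50 counts, -0.0066, -0.012 and -0.072 without scramble replicate 1, scramble replicate 2 and knockdown replicate 1, and -0.048, -0.042 and -0.048 on TPM plus 0.1, plus 1 and plus 0.1 unfiltered. Igfbp1 turned to 0.15 without scramble replicate 1 and 0.18 without knockdown replicate 2, in a range of -0.42 to 0.18 over the fits without 1 library, and that of Jak2 was -0.072 to 0.10. The cause of these differences was not tested.

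Same-numbered livers did not deviate together (correlations of -0.023, 0.023 and 0.0032 for numbers 1, 2 and 3), and 1 of 3 knockdown livers correlated best with its own number. With 3 livers a group these values cannot decide whether the numbers pair the livers, and the main fit used no pairing. With the replicate block, the Bcl6 value kept its side of the threshold (adjusted p = 0.0313) and Hnf1aos1 passed it (adjusted p = 0.0138). In that fit 878 genes were called, and the male-biased list had 11 called genes.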

Other observations

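The core clock was listed because its genes move with the hour of collection. Of 15 clock genes measured, 1 was called, near the 6.32% of all genes. A log2 fold change below 0 was found for 14 of them, against 50.1% of all genes, with a median of -0.17. For 4 of the 15 every knockdown library was below every scramble library, as for 13.7% of all genes tested. Per1, a period gene that glucocorticoid also induces, had normalized counts of 427, 376 and 444 in scramble livers and 127, 77.9 and 153 in knockdown livers (log2 fold change -1.80, SE 0.206, adjusted p = 0.00294), and it was called whichever single library was left out. The hours of collection were not given in the sources used here, and their part in the values was not tested.

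Markers of further cell types were counted in the same libraries. Over all genes tested, 3.09% were called as higher and 3.23% as lower by edgeR. Of the hepatocyte markers 1 was called as lower, Tat, which is also in the insulin and fasting list. Of 5 monocyte and neutrophil markers tested, 1 was higher, Plac8. None of the 10 endothelial, 10 stellate and 5 cholangiocyte markers tested was called by edgeR or DESeq2. In edgeR 0, 1 and 0 of them had an unadjusted p under 0.05, against 23.4% of all genes. All 10 skeletal muscle markers were below 0, against 50.1% of all genes tested, with a median of -1.36 and 1 called, Actn3. Their summed level was 60.7 to 226 CPM in scramble livers and 27.3 to 71.0 CPM in knockdown livers.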
